A study of Mus musculus with 2 samples.

Results

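The tumour suppressor gene Trp53 and 9 genes of the p53 and stress response were followed in mouse acute myeloid leukaemia (AML) cells. The 10 genes were taken by symbol from a table of 46095 genes, and all 10 were in it. The study set P2x7 knockout against wild type, P2x7 being a cation channel that opens on binding ATP (gene P2rx7). It holds 1 library labelled P2x7-KO and 1 labelled wild type, both from marrow cells positive for Mac1 and c-Kit by sorting and named leukaemia-initiating by the submitters. The strain was C57BL/6 and the age 8 weeks in both, and the titles of the libraries end in KD and Scr. The sources used here do not give how the leukaemia was made, nor how many mice went into a library.

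The p53 protein is a transcription factor that is held at a low level by the ubiquitin ligase Mdm2 and accumulates after DNA damage or oncogenic stress. It then switches on genes of cell cycle arrest, repair, metabolism and cell death, Mdm2 itself among them, which closes a negative feedback loop. Much of its control acts on the protein, so the amount of Trp53 mRNA does not give the amount of active p53. The GADD45 proteins are small stress sensors induced through p53 and also independently of it, and Gadd45b is known as a primary response gene of myeloid differentiation.

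Each group holds 1 library, so the genotypes could not be tested against each other and p-values are left out. Values are raw counts per gene, and CPM, which are counts per 1000000 after scaling by the trimmed mean of M values (TMM). A ratio sets scaled counts of the library labelled P2x7-KO over those of the library labelled wild type, and its 95% interval covers counting error only, and nothing of the variation among animals, sorts or preparations. The call of at least 2-fold higher or lower was given when a gene's ratio was 2 or more in that direction and its interval excluded equality, with both libraries together holding 20 counts or more, which 13363 genes did. Of these, 10.8% were called higher and 8.95% lower, 19.8% in all.

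The labels and the libraries have limits that touch every value below. P2rx7 had 543 counts in the library labelled P2x7-KO and 229 in the library labelled wild type (2.27-fold, 1.94 to 2.66), so the targeted gene went against its label. The counts do not show whether the labels were exchanged or whether a disrupted P2rx7 still gave reads, and neither was tested. If the labels were exchanged, every direction given here would turn round. Both sort genes were detected in both libraries, with Itgam, which encodes a Mac1 chain, at 543 CPM in the library labelled P2x7-KO and 187 CPM in the library labelled wild type. Kit stood at 67.6 CPM in the library labelled P2x7-KO and 46.0 CPM in the library labelled wild type. In bulk libraries a different mix of cells and a different level per cell cannot be told apart. The depth was near equal, at 12435916 counts in the library labelled P2x7-KO and 12456212 in the library labelled wild type. Ratios moved with transcript length and base composition across all genes: the median log2 ratio was -0.49 in the shortest quintile of genes and 0.51 in the longest, and 0.37 in the quintile of lowest GC content and -0.36 in that of highest. Where an adjusted ratio is given, a smooth trend on both properties was subtracted. For P2rx7 the log2 ratio of 1.18 became 0.94 (0.72 to 1.17) after adjustment, which is under 2-fold.

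Promoter sequences are printed for the genes whose window holds a match to the p53 binding consensus, and for Gadd45b, which was the furthest lower of the 10 genes. Of the 10 genes, 8 had an entry in the RefSeq promoter table (build GRCm38.p6), which spans 250 bases before to 50 bases after each transcript start. Trp53inp1 and Zmat3 were not matched. In the first 5 sequences capitals mark matches to the p53 half-site consensus of 10 bases, and in Ccng1 the full site of 20 bases. In the last, capitals mark the E-box CACGTG and the TATA box TATAAA.
Trp53 promoter, chr11:69580109-69580408, plus strand: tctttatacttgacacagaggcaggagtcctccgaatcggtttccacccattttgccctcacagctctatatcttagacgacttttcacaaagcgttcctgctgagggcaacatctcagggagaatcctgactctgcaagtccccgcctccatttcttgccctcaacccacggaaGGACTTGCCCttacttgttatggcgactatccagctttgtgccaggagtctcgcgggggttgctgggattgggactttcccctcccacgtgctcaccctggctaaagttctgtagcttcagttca
Mdm2 promoter, chr10:117710709-117711008, minus strand: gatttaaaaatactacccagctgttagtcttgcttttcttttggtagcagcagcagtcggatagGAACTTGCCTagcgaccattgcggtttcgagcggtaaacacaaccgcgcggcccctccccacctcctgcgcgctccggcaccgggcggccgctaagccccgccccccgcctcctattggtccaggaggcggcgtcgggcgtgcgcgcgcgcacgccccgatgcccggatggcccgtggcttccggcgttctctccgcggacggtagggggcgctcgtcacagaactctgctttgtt
Ccng1 promoter, chr11:40755237-40755536, minus strand: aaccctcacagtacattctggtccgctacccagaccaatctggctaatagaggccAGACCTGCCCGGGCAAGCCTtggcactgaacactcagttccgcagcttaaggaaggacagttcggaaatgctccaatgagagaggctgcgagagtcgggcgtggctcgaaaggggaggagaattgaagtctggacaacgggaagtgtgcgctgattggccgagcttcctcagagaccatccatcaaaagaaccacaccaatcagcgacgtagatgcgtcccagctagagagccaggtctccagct
Aen promoter, chr7:78895677-78895976, plus strand: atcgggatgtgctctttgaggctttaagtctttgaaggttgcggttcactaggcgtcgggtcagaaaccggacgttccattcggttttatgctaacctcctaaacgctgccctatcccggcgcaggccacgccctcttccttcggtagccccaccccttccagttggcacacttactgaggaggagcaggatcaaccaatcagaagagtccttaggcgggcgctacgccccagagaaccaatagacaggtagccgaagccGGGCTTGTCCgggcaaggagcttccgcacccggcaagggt
Gadd45a promoter, chr6:67037358-67037657, minus strand: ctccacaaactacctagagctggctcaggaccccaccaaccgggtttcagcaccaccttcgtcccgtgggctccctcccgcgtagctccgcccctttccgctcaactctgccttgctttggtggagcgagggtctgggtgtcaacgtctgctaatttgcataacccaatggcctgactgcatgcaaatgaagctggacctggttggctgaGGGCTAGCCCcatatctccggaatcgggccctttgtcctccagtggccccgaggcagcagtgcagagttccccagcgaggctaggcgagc
Gadd45b promoter, chr10:80929841-80930140, plus strand: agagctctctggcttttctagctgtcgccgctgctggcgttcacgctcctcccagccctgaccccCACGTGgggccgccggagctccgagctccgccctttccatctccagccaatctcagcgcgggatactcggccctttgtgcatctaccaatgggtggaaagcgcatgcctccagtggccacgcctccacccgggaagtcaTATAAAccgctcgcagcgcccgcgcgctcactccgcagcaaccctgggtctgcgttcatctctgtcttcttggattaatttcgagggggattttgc

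The half-site consensus, searched on both strands with no mismatch, was found in 5 of the 8 genes, namely Trp53, Mdm2, Ccng1, Aen and Gadd45a. It was found in 8.36% of all 32851 promoter windows of the same length, and in at least 1 window of 9.55% of the 27025 genes. Ccng1 alone among the 8 also had 2 adjacent half-sites with at most 2 mismatches in 20 bases, starting 195 bases before the transcript start and with 1 mismatch, against 0.798% of all windows. The windows of Phlda3, Eda2r and Gadd45b held no match to the half-site. The E-box CACGTG and the TATA box TATAAA of Gadd45b occur in 7.15% and 13.6% of all windows on either strand. Genes with a half-site in the window lay on both sides of equality, and p53 sites that lie in introns or further away were not searched.

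Trp53 itself was lower in the library labelled P2x7-KO but did not reach 2-fold. Its position in GENCODE M21 (build mm10, plus strand) is chromosome 11, bases 69580359 to 69591873. There were 1795 counts in the library labelled P2x7-KO and 2762 in the library labelled wild type, or 141 CPM (134.5 to 148) against 227 CPM (219 to 236). The ratio was thus 1.61-fold lower (1.52 to 1.71). The log2 ratio of -0.69 was -0.58 (-0.67 to -0.49) once adjusted. Its pseudogene Trp53-ps, whose reads the counting could split, had 24 and 37 counts in the libraries labelled P2x7-KO and wild type, a small number beside those of Trp53.

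Of the 9 genes with at least 20 counts, 1 was called higher, which was Trp53inp1, and 3 were called lower, which were Gadd45b, Phlda3 and Gadd45a. The background in the same comparison was 10.8% higher and 8.95% lower, 19.8% in all, and with 9 genes these counts are small. The other 5 genes, Trp53, Mdm2, Ccng1, Zmat3 and Aen, were past neither side. Eda2r, a gene of a receptor for ectodysplasin A2 on chromosome X from 97333840 to 97377216, had 0 counts in both libraries, which allows up to 0.236 CPM in the library labelled P2x7-KO and 0.247 CPM in the library labelled wild type, taking 3 counts as the limit. The summed level of the 10 genes was 491 CPM in the library labelled P2x7-KO and 672 CPM in the library labelled wild type.

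**Figure D1:**
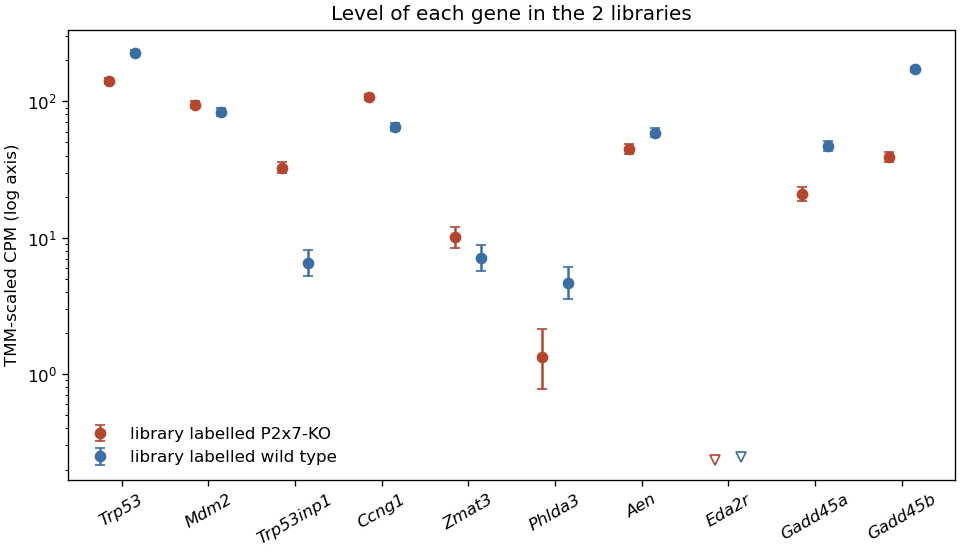
Level of each gene in TMM-scaled CPM on a log axis, in the library labelled P2x7-KO (left point of each pair) and the library labelled wild type (right point), with exact Poisson 95% intervals as bars and open triangles at the limit of 3 counts for a gene with 0 counts. Trp53inp1 stands at 32.7 CPM in the library labelled P2x7-KO and 6.58 CPM in the library labelled wild type, Gadd45b at 39.1 CPM in the library labelled P2x7-KO and 172 CPM in the library labelled wild type, while both points of Mdm2 lie close together.

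Trp53inp1 was the only one of the 10 genes called higher. It encodes a nuclear stress-induced protein that promotes phosphorylation of p53 and also takes part in autophagy. It spans bases 11156431 to 11174379 of chromosome 4. It had 416 counts in the library labelled P2x7-KO and 80 in the library labelled wild type, or 32.7 CPM (29.6 to 36.0) against 6.58 CPM (5.22 to 8.18). The ratio was 4.97-fold (3.90 to 6.39). Its longest annotated transcript has 5432 bases and 38.8% GC, and the log2 ratio of 2.30 became 1.70 (1.36 to 2.07) after adjustment, still past 2-fold.

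The genes of the feedback loop around Mdm2 were near equality or moderately higher. Mdm2, on chromosome 10 from 117688875 to 117710758, had 1203 counts in the library labelled P2x7-KO and 1018 in the library labelled wild type, or 94.5 against 83.7 CPM. Its ratio was 1.13-fold (1.04 to 1.23), and the adjusted log2 ratio of 0.08 (-0.04 to 0.20) had an interval that includes equality. Ccng1, on chromosome 11 from 40748552 to 40755311, encodes cyclin G1, which recruits a phosphatase to Mdm2. It had 1365 counts in the library labelled P2x7-KO and 792 in the library labelled wild type, or 107 against 65.1 CPM. The Ccng1 ratio was 1.65-fold (1.51 to 1.80), under the 2-fold rule, and on the log2 scale it was 0.72 as counted and 0.42 (0.30 to 0.55) after adjustment.

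Zmat3, on chromosome 3 from 32334792 to 32366014, encodes a zinc finger RNA-binding protein that p53 induces, and stood at low counts with an interval close to equality. It had 128 counts in the library labelled P2x7-KO and 87 in the library labelled wild type, or 10.1 against 7.15 CPM. The ratio was 1.41-fold (1.06 to 1.87), and the log2 value of 0.49 turned to -0.08 (-0.49 to 0.33) after adjustment. Its longest transcript, at 7797 bases, is the longest among the 10 genes. The direction for Zmat3 thus differs with and without adjustment, and neither value is far from equality.

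Among the genes linked to survival signalling and cell death, Phlda3 was called lower and Aen was not. Phlda3, on chromosome 1 from 135766119 to 135769136, encodes a pleckstrin homology domain protein that competes with the kinase Akt for membrane lipids. It had 17 counts in the library labelled P2x7-KO and 57 in the library labelled wild type, or 1.34 against 4.69 CPM. The ratio was 3.51-fold lower with a wide interval (2.01 to 6.44), and the log2 value of -1.78 became -1.06 (-1.96 to -0.28) after adjustment, still past 2-fold. Its longest transcript has 62.6% GC. Aen, an apoptosis-enhancing nuclease gene on chromosome 7 from 78895854 to 78911209, had 569 counts in the library labelled P2x7-KO and 718 in the library labelled wild type, or 44.7 against 59.0 CPM. It was 1.32-fold lower (1.18 to 1.48), and its log2 ratio of -0.40 was -0.60 (-0.77 to -0.44) after adjustment.

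Gadd45b and Gadd45a both stood lower in the library labelled P2x7-KO, Gadd45b by more. Their products bind the kinase encoded by Map3k4, the replication clamp encoded by Pcna and the mitotic kinase Cdk1. Gadd45b, on chromosome 10 from 80930073 to 80932204, had 498 counts in the library labelled P2x7-KO and 2087 in the library labelled wild type, or 39.1 CPM (35.7 to 42.7) against 172 CPM (164 to 179). It was 4.39-fold lower (3.98 to 4.85). The log2 value of -2.13 became -1.61 (-1.76 to -1.47) after adjustment, still past 2-fold.

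Gadd45a, on chromosome 6 from 67035096 to 67037457, had 266 counts in the library labelled P2x7-KO and 575 in the library labelled wild type, or 20.9 against 47.3 CPM. It was 2.26-fold lower (1.95 to 2.63), but the log2 value of -1.18 became -0.84 (-1.06 to -0.63) after adjustment, which is under 2-fold. A noncoding gene, E230016M11Rik, overlaps it on the opposite strand and had 32 and 29 counts in the libraries labelled P2x7-KO and wild type. No source used here gives the strand setting, and reads from that overlap cannot be told apart. Another family gene, Gadd45g, had 115 counts in the library labelled P2x7-KO and 319 in the library labelled wild type and was 2.90-fold lower (2.34 to 3.63). The log2 ratio was -1.53 as counted and -0.81 (-1.14 to -0.51) once adjusted, so Gadd45b alone of the 3 remained past 2-fold there.

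**Figure D2:**
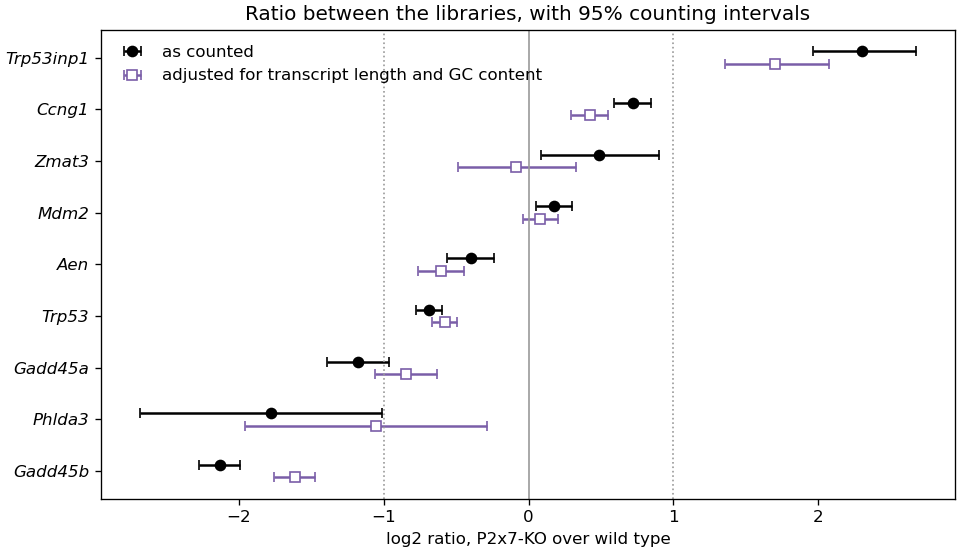
Log2 ratio of the library labelled P2x7-KO over the library labelled wild type for the 9 genes counted, as counted (filled circles) and adjusted for transcript length and GC content (open squares), with 95% counting intervals and dotted lines at 2-fold. Trp53inp1 lies at 2.30 and 1.70, Gadd45b at -2.13 and -1.61, and Zmat3 moves across equality.

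Levels within a library were compared per kilobase of the longest annotated transcript. In the library labelled P2x7-KO Trp53 came first at 43.0 CPM per kilobase, followed by Ccng1 at 30.5, Gadd45b at 30.5 and Mdm2 at 30.04, whose intervals overlap. Gadd45a (17.1), Aen (9.02) and Trp53inp1 (6.01) followed, and Zmat3 (1.29) and Phlda3 (0.930) came last with overlapping intervals. In the library labelled wild type Gadd45b came first at 134 CPM per kilobase, before Trp53 at 69.3, Gadd45a at 38.6, Mdm2 at 26.6, Ccng1 at 18.5, Aen at 11.9 and Phlda3 at 3.27. Trp53inp1 (1.21) and Zmat3 (0.917) came last there, with overlapping intervals. Gadd45b thus stood above Trp53 per kilobase in the library labelled wild type and below it in the library labelled P2x7-KO. Its counts were below those of Trp53 in the library labelled wild type too (2087 against 2762), so that order rests on the annotated lengths. Which transcripts were expressed was not tested.

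Ratios of 2 genes within a library do not depend on how the libraries are scaled, and 8 were formed after the values had been seen. Most of them have Trp53 as divisor, so its own 1.61-fold lower level enters each of those. Mdm2 taken alone was at 1.13-fold. Mdm2 had 0.670 counts per count of Trp53 in the library labelled P2x7-KO and 0.369 in the library labelled wild type, a 1.82-fold difference (1.64 to 2.02) that was 1.58-fold from the adjusted values. Ccng1 had 0.760 counts per count of Trp53 in the library labelled P2x7-KO against 0.287 in the library labelled wild type, 2.65-fold apart (2.38 to 2.95) and 2.004-fold after adjustment. Relative to Trp53, Trp53inp1 was 8.00-fold higher (6.23 to 10.4) and Zmat3 2.26-fold higher (1.70 to 3.03), and these became 4.86-fold and 1.41-fold after adjustment. Aen per Trp53 differed by 1.22-fold (1.07 to 1.38), or 0.984-fold after adjustment, with an interval that includes equality (0.866 to 1.12). Ccng1 per Mdm2 was 1.46-fold higher (1.29 to 1.65), or 1.27-fold after adjustment. Gadd45b had 1.87 counts per count of Gadd45a in the library labelled P2x7-KO and 3.63 in the library labelled wild type, a ratio of 0.516 (0.432 to 0.617), or 0.587 after adjustment. Cdkn1a, the gene of the cell cycle inhibitor p21, had 0.199 counts per count of Trp53 in the library labelled P2x7-KO and 0.315 in the library labelled wild type, a ratio of 0.634 (0.551 to 0.728), or 0.720 after adjustment.

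Other p53 targets went both ways, and those of arrest and repair had more genes lower than higher. Of 17 arrest and repair genes counted, 4 were called lower (23.5%), 1 higher (5.88%) and 12 neither. The background over all genes counted was 8.95% lower and 10.8% higher. Their median log2 ratio was -0.43, beside 0.00 over all genes counted. Plk2 and Plk3 encode polo-like kinases that respond to stress. Plk2 had 17 counts in the library labelled P2x7-KO and 161 in the library labelled wild type and was 9.91-fold lower (6.00 to 17.4), with an adjusted log2 ratio of -3.24. Plk3 had 98 counts in the library labelled P2x7-KO and 502 in the library labelled wild type, 5.36-fold lower (4.31 to 6.73), and still past 2-fold after adjustment. Cdkn1a stood at 28.1 CPM in the library labelled P2x7-KO and 71.4 CPM in the library labelled wild type, 2.54-fold lower (2.24 to 2.88), with an adjusted log2 ratio of -1.05. Rps27l, a ribosomal protein-like gene, was 2.33-fold lower (2.10 to 2.59) and under 2-fold after adjustment. Rrm2b, which encodes the p53-inducible subunit of ribonucleotide reductase, stood at 25.8 CPM in the library labelled P2x7-KO and 9.37 CPM in the library labelled wild type. It was 2.76-fold higher (2.22 to 3.44), with an adjusted log2 ratio of 0.97, just under 2-fold.

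The death and metabolism targets had 1 gene each past the rule, both higher. These are 8.33% and 9.09% of those counted, where 10.8% of all genes counted were higher and 8.95% lower. Of 12 death genes counted, Apaf1, which encodes the scaffold of the apoptosome, had 154 CPM in the library labelled P2x7-KO and 69.8 CPM in the library labelled wild type. It was 2.21-fold higher (2.04 to 2.40), a log2 ratio of 1.14 that became 0.59 after adjustment. The median of that list was -0.10, and 0.27 after adjustment. Bax, Bbc3 and Pmaip1, BCL2 family death genes named after their values were seen, were past neither side. Bax stood at 68.7 CPM in the library labelled P2x7-KO and 104 CPM in the library labelled wild type, a log2 ratio of -0.59 that turned to 0.26 after adjustment. Bbc3 stood at 16.6 CPM in the library labelled P2x7-KO and 27.9 CPM in the library labelled wild type, with an adjusted log2 ratio of -0.01 (-0.27 to 0.24). Pmaip1 stood at 105.6 CPM in the library labelled P2x7-KO and 173.5 CPM in the library labelled wild type, with an adjusted log2 ratio of -0.87. Of 11 metabolism genes, Ddit4, a stress-induced inhibitor of mTORC1 signalling, was 3.03-fold higher (2.66 to 3.45), with an adjusted log2 ratio of 2.06, and the median of the list was 0.00.

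Most regulators of p53 were not called, as for genes at large. Of 26 counted, 24 were past neither side, with a median log2 ratio of 0.16, and Cop1 and Trp53rk were not found under these symbols. The share called was 3.85% in each direction, beside 10.8% higher and 8.95% lower over all genes counted. Among those not called, Herc2 and Ppp1r13l, named after their values were seen, lay furthest to either side. Their log2 ratios were 0.91 and -0.70, or 0.23 and -0.21 after adjustment. Ep300, a gene of a p53 acetyltransferase, was 2.19-fold higher (2.06 to 2.33), but its log2 ratio of 1.13 became 0.59 after adjustment. Ppp1r13b, which encodes the p53-binding protein ASPP1, had 266 counts in the library labelled P2x7-KO and 646 in the library labelled wild type, 2.54-fold lower (2.20 to 2.94), with an adjusted log2 ratio of -1.38. Of the 10 relatives of the genes described, Trp63, Trp73, Phlda2, Edar and Tnfrsf19 had 0 counts in both libraries. Among the 5 relatives counted Gadd45g was called lower, and Ccng2, the cyclin G2 gene, was 2.37-fold higher (2.01 to 2.79) with an adjusted log2 ratio of 0.81. Of the 11 genes of GADD45 partners 0 were called in either direction, and their median was 0.30. The background for these partners and for the relatives was 19.8% of all genes counted called in either direction. The partner gene Mapk14, a stress kinase gene named after its value was seen, was at 1.96-fold (1.75 to 2.20), and past 2-fold with total count scaling (log2 ratio 1.04).

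**Figure D3:**
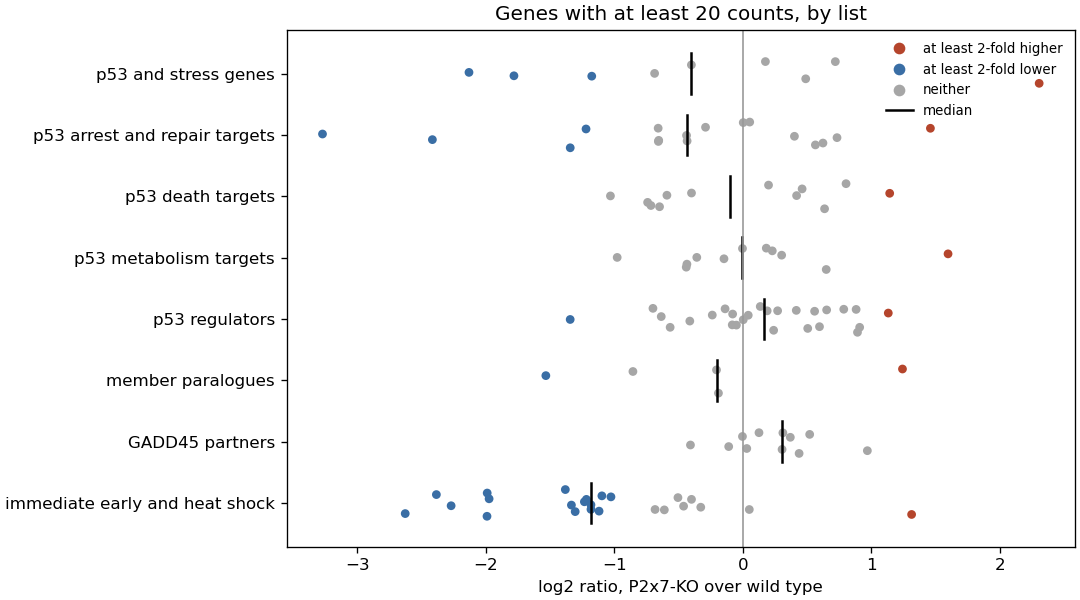
Log2 ratio of the library labelled P2x7-KO over the library labelled wild type for each gene with at least 20 counts, 1 row of points per list, with the median as a black line and genes at least 2-fold higher or lower in colour. Arrest and repair targets hold 4 genes lower and 1 higher, and the immediate early and heat shock list lies to the left with 16 lower and 1 higher. The background over all genes counted was 8.95% lower and 10.8% higher.

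Immediate early and heat shock genes, which respond within minutes to growth factors, stress or cell handling, moved in the same direction as the GADD45 genes. Of 24 counted, 16 were called lower (66.7%) and 1 higher (4.17%), with a median log2 ratio of -1.18. The background was 8.95% lower and 10.8% higher. Of the heat shock genes, named after their values were seen, only Dnajb1 was called, at 2.14-fold lower. Hspa8 and Hsp90aa1 were 1.61-fold and 1.42-fold lower. Hspa1a had 1 and 4 counts and Hspa1b 2 and 3 in the libraries labelled P2x7-KO and wild type. The summed level of the list was 5112 CPM in the library labelled P2x7-KO and 11837 CPM in the library labelled wild type. Egr1 was 6.19-fold lower (5.48 to 7.01), Dusp2 5.23-fold (4.77 to 5.74), Fosb 4.83-fold (4.64 to 5.03) and Jun 3.98-fold (3.86 to 4.10), while Socs3 was 2.59-fold higher (1.04 to 7.30), with 19 counts in the library labelled P2x7-KO and 7 in the library labelled wild type. After adjustment 9 of the 24 were lower and 1 higher, with a median of -0.85, beside 5.34% lower and 8.28% higher over all genes adjusted. The part of this response in the values of Gadd45b, Gadd45a, Plk2 and Plk3 was not tested.

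Cell type markers also differed between the libraries. The background for each count of markers called was 10.8% higher and 8.95% lower over all genes counted. Of 10 monocyte markers 8 were called higher and 0 lower, with a summed level of 5131 CPM in the library labelled P2x7-KO and 2226 CPM in the library labelled wild type. Not called were Adgre1, at 1.35-fold, and Ly6c2, at 960 CPM in the library labelled P2x7-KO and 995 CPM in the library labelled wild type. Of 10 neutrophil markers 1 was called higher and 1 lower, 6 lay above equality, and the median log2 ratio was 0.57, or 0.70 after adjustment, with sums of 3432 CPM in the library labelled P2x7-KO and 3727 CPM in the library labelled wild type. Mast cell and basophil markers summed to 40.1 CPM in the library labelled P2x7-KO and 379 CPM in the library labelled wild type, with 2 of the 4 counted called lower and Fcer1a at 0 in both. Cpa3, called lower, held most of both sums, with 280 counts in the library labelled P2x7-KO and 4058 in the library labelled wild type. Hdc, also called lower, had 24 and 266 counts in these libraries. Mcpt8 and Ms4a2 were not called, at 1.43-fold lower (1.19 to 1.73) and 1.24-fold lower (0.511 to 3.05). The interval of Ms4a2 includes equality. Erythroid markers summed to 11.1 CPM in the library labelled P2x7-KO and 1.32 CPM in the library labelled wild type, with 2 of the 2 counted higher. Alas2 had 7 counts in the library labelled P2x7-KO and 0 in the library labelled wild type. B lymphoid markers summed to 85.4 CPM in the library labelled P2x7-KO and 130 CPM in the library labelled wild type. Of the 2 counted, Ighm was called lower, and Cd79b had 684 and 681 counts in the libraries labelled P2x7-KO and wild type. Ms4a1, Ebf1 and Pax5 had 1 count each in the library labelled P2x7-KO and 0 in the library labelled wild type. T and NK markers summed to 12.6 CPM in the library labelled P2x7-KO and 35.1 CPM in the library labelled wild type. The 2 counted, Nkg7 and Il7r, were lower and held most of the latter sum. Klrb1c, under the count minimum, went the other way with 14 counts in the library labelled P2x7-KO and 1 in the library labelled wild type. Cd3e and Gzma were at 0 in the library labelled wild type. The 6 dendritic markers summed to 919 CPM in the library labelled P2x7-KO and 829 CPM in the library labelled wild type, with 2 of the 4 counted higher and H2-Aa at 0 in both. Flt3 and Irf8, neither of them called, held most of both sums. In the libraries labelled P2x7-KO and wild type Flt3 stood at 374 and 368 CPM and Irf8 at 520 and 452 CPM. The part of the cell mix in the ratios of the p53 and stress genes was not tested.

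**Figure D4:**
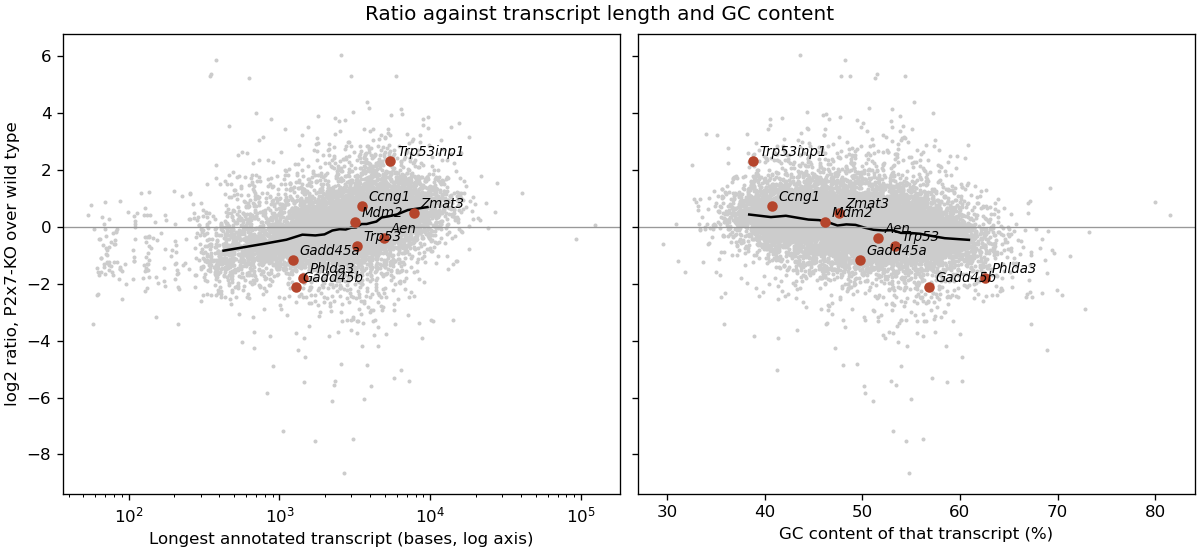
Log2 ratio of the library labelled P2x7-KO over the library labelled wild type against the length of the longest annotated transcript (left, log axis) and its GC content (right), for genes with at least 20 counts in grey, with running medians in black and the p53 and stress genes in colour. Gadd45a, Gadd45b and Phlda3 have short transcripts of 1223 to 1435 bases, where the running median is below 0, and Trp53inp1 and Zmat3 have long ones, where it is above 0.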

How the data were processed

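Gene expression was measured by RNA sequencing in 1 library labelled P2x7-KO and 1 labelled wild type. Raw counts per gene were deposited by the authors for 46095 genes. The submitters' processing notes name HISAT2 2.0.4 and mm10. The sources used here do not give the counter, its annotation and strand setting, or how multiply matching reads were handled.

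Counts were scaled over all genes with TMM (edgeR 4.0.16, R 4.3.3). Ratios carry exact Clopper-Pearson 95% intervals and CPM exact Poisson ones. Before log2, 0.5 was added to each count. Reads are not independent molecules, so intervals and limits cover counting error only. Length and GC content came from the longest GENCODE M21 transcript of any class, noncoding forms included, found for 12374 of 13363 genes counted. Their trend came from median regression on splines with 5 knots (statsmodels 0.14.6). Interval, call and adjustment were checked on simulated data. The simulated counts varied by counting error only, as the intervals assume, so variation between libraries was not covered. The adjustment was checked on simulated properties, not on real lengths or GC content.

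The 10 genes and all gene lists were chosen with earlier results of these data known. The text names all 10, and from each list other than the cell type markers every gene past the rule, or of longer sets up to 4 in the main and 2 in the other direction by the nearer interval bound. Alternatives were total count, DESeq2 1.42.0 and upper quartile scaling, thinning to equal totals, other count minimums and adjustment for length, or length and GC content. No likeness of patterns between genes was computed from 2 libraries.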

Additional observations from a re-analysis of the deposited data

How the results depend on the processing

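The calls of the 10 genes did not change with total count, DESeq2 or upper quartile scaling or with thinning to equal totals, and Gadd45a alone lost its call, under adjustment for length (log2 ratio -0.77) and for length with GC content (-0.84). The median log2 ratio of the 9 genes counted, -0.40, became -0.70 with the length adjustment and -0.58 with that for length and GC content. Over the 12374 genes with a known length, the 1068 lower calls became 711 and 661 under these adjustments. The 1281 higher calls became 1059 and 1024. Over all genes counted, the 1196 lower calls became 704 and the 1447 higher calls 981 with a count minimum of 100. That minimum also leaves fewer genes that can be called.

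Adjusted for length, the median of the arrest and repair targets was -0.23 and that of the immediate early and heat shock list -1.05, while 1 regulator and 1 relative were past 2-fold. Adjusted for both properties, the medians were 0.15 for metabolism targets, -0.034 for regulators and -0.85 for immediate early and heat shock genes. The genes past 2-fold in either direction were then 3 arrest and repair targets, 0 death targets, 1 regulator, 0 relatives, 1 GADD45 partner and 10 immediate early and heat shock genes. The background with this adjustment was 8.28% higher and 5.34% lower. With total count and with DESeq2 scaling 1 GADD45 partner (Mapk14) was past 2-fold, and with upper quartile scaling 2 metabolism targets were. The trend with length and GC content is shared by all genes, and whether it comes from the libraries or the cells was not tested. No paired analysis was possible because each group holds 1 library.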
